A study of Mus musculus with 3 samples.

Results

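The cholesterol and lipid handling genes were 31 named genes, followed in RNA bound to the chromatin of mouse macrophages. All 31 were found by symbol among the 55450 annotated genes of the tables, of which 21951 are protein-coding. They were taken as a list of named genes, by a rule that uses no measured value. The list was made with earlier results of these data known, so it was not blind to them. The series holds 1 group of 3 libraries, numbered as replicates 1, 2 and 3. Each came from primary macrophages grown from bone marrow of C57BL/6J mice and given lipid A at 100 ng/ml for 15 min. Lipid A, the membrane anchor of bacterial endotoxin, activates the receptor TLR4. The chromatin fraction was isolated, ribosomal RNA was depleted and the remaining RNA was sequenced. The 3 libraries carry the same donor label, so their spread may be technical, and age and sex are not given by the labels. No unstimulated library was analysed here, so the values describe a state 15 min after lipid A and no response to it. Levels are in TPM, transcripts per 1000000, which are corrected for length so that genes can be set side by side. Such comparisons depend on the quantification. The ratio of the 2 deposited quantifications ran from 1.03 to 5.11 among expressed members. With 3 libraries in 1 group the smallest exact sign-flip p is 0.25, so spread is given as an SD and no p is given.

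Cells hold their cholesterol constant through opposed programs. When sterols in the endoplasmic reticulum are low, the escort protein SCAP carries SREBP transcription factors to the Golgi for cleavage, and the released SREBPs turn on the enzymes of cholesterol and fatty acid synthesis. When sterols are high, INSIG proteins hold SCAP back. Oxysterols then activate the nuclear receptor LXR, which turns on the export pumps ABCA1 and ABCG1. Macrophages take up lipoproteins and dying cells, so they depend on export and on storage of cholesterol as ester droplets.

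The libraries held 10974934, 21376404 and 14376665 expected counts in replicates 1, 2 and 3, from 1 µg, 250 ng and 500 ng of starting RNA. Small nucleolar RNAs took 41.7%, 49.8% and 39.0% of the TPM. Since TPM has a fixed sum, other genes share what is left, and in replicate 2 the median expressed protein-coding gene lay 0.36 below its mean over the libraries on the log2(TPM + 1) scale. It lay 0.11 above in replicate 1 and 0.26 above in replicate 3. All 6 macrophage markers examined were at 1 TPM or more in every library, with summed levels of 413 to 696 TPM. None of 5 adipocyte, 4 hepatocyte, 5 neutrophil, 5 T and B cell or 4 stromal markers reached 1 TPM in all 3 libraries. The summed adipocyte list was at 0 to 0.09 TPM and the hepatocyte list at 0 to 0.18 TPM, with Adipoq and Alb among the markers. Of 4 erythroid markers only Alas2 was detected, and the globin gene Hba-a1 was at 0. In the second of the 2 deposited quantifications 3 of the undetected markers had means above 1 TPM. They were Cd3d of the T and B cell list (16.1 TPM), the stromal Col1a1 (1.51 TPM) and the neutrophil Camp (1.24 TPM). In bulk RNA such as this, fewer cells of a type and less RNA per cell cannot be told apart.

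Of the 31 genes, 29 reached 1 TPM in all 3 libraries, where 42.6% of all protein-coding genes did. Their median level was 8.19, 6.16 and 8.69 TPM in replicates 1, 2 and 3, or 7.68 ± 1.34 TPM (SD, n = 3). Over all protein-coding genes the median was 0.553 ± 0.158 TPM, and over the 10245 with a mean of at least 1 TPM it was 8.73 ± 2.20 TPM (SD, n = 3 each). The members chosen were expressed more often than protein-coding genes at large and at the middle of the expressed range. Because the list was made with earlier results known, this describes the list and is no test of it. Abca1 alone took 43.3%, 60.1% and 46.9% of the members' counts. Counts grow with length, and Abca1 is the longest member, with a mean effective length of 9597 bases. In TPM it held a smaller part, 124, 174 and 161 of the members' summed 701, 644 and 805. The members together took 0.336%, 0.418% and 0.359% of all counts. Ranked by mean TPM, 27 of the 30 neighbouring pairs overlapped in their range over libraries. The ranges were apart at only 3 steps, from Apoe down to Acaca, from Dhcr7 down to Hsd17b7 and from Hsd17b7 down to Ch25h. Overlap of ranges does not compare genes within a library. Some overlapping neighbours kept their order in each library, such as Lpl above Abcg1 and Mylip above Lss.

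**Figure D1:**
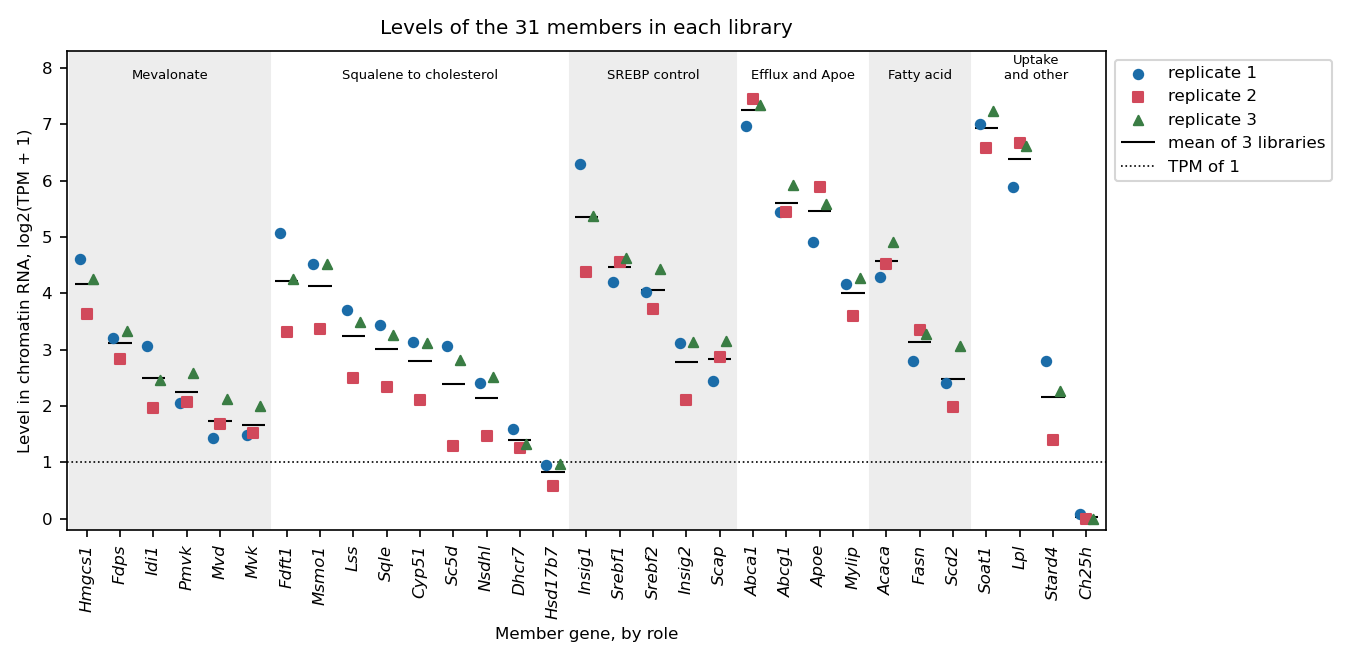
Level of each of the 31 genes on the log2(TPM + 1) scale (vertical axis) by role (horizontal axis), with 1 point per library, a bar at the mean and a dotted line at 1 TPM. Abca1, Soat1 and Lpl lie highest, the synthesis enzymes spread from 19.8 TPM (Fdft1) down to 0.797 TPM (Hsd17b7) in mean TPM, and Ch25h lies at the bottom.

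By median, 2 of the 6 role groups stood highest, the 4 export genes at 46.5 ± 9.42 TPM and the 4 genes of uptake, esters, oxysterol and sterol transfer at 43.5 ± 9.91 TPM (SD, n = 3 each). They lay within each other's spread, and in a second quantification that the authors deposited their order turned, with 65.7 TPM for export and 78.0 TPM for the other group. No gene of that other group lay near its median. The median falls midway between Stard4, at a mean of 3.80 TPM, and the lower of Lpl and Soat1, at means of 85.4 and 124 TPM. The 5 SREBP control genes were at 16.0 ± 4.22 TPM and the 3 fatty acid genes at 7.94 ± 1.73 TPM. Abca1, the pump that moves cholesterol and phospholipid onto lipid-poor apolipoprotein, was the highest member, at 124, 174 and 161 TPM in replicates 1, 2 and 3, or 153 ± 25.7 TPM (SD, n = 3). It lies on the minus strand of mm10 at chr4:53030787-53159895, spans 129 kb and had 15981, 53678 and 24189 expected counts. Its mean TPM stood at percentile 99.2 of protein-coding genes. Abcg1, which passes cholesterol to mature lipoprotein particles, was at 42.3, 42.5 and 59.7 TPM, or 48.2 ± 9.99 TPM. The level of Abca1 was 2.94, 4.09 and 2.70 times that of Abcg1, so Abca1 led in each library. Apoe, the secreted apolipoprotein that accepts cholesterol, was at 29.3, 58.6 and 46.9 TPM (44.9 ± 14.8 TPM). Its level was lowest in replicate 1. Mylip, an LXR target whose ubiquitin ligase product marks lipoprotein receptors for degradation, was the lowest of the 4 at 16.9, 11.0 and 18.4 TPM (15.4 ± 3.89 TPM).

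The other 4 genes of lipid traffic split widely. Soat1, the enzyme that makes cholesterol esters for storage, was second of all members at 128, 94.3 and 149 TPM (124 ± 27.7 TPM). Lpl, the lipase that frees fatty acids from lipoprotein triglyceride, followed at 58.4, 101 and 97.0 TPM (85.4 ± 23.4 TPM). Each was above all 15 synthesis enzymes in every library. Stard4, a sterol transfer protein and SREBP target, was far lower at 5.93, 1.64 and 3.82 TPM, highest in replicate 1. Ch25h, which makes 25-hydroxycholesterol and is known as an interferon-responsive gene of macrophages, had 1, 0 and 0 counts in the 3 libraries. This is at or under the limit of 3 counts, worth 0.187, 0.0827 and 0.168 TPM, so its chromatin RNA was not detectable at this depth.

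The 15 enzymes of synthesis stood lower, with means from 0.797 to 19.8 TPM. In the mevalonate part, which builds the isoprenoid units, Hmgcs1 makes HMG-CoA and was the highest, at 23.4, 11.3 and 18.1 TPM (17.6 ± 6.04 TPM). Fdps, which joins the units to farnesyl diphosphate, followed at 7.81 ± 1.5 TPM and the isomerase gene Idi1 at 4.91 ± 2.26 TPM. The kinase genes Pmvk and Mvk were at 3.80 ± 1.07 and 2.21 ± 0.673 TPM and the decarboxylase gene Mvd at 2.41 ± 0.849 TPM (SD, n = 3 each). The median of these 6 was 4.35 ± 1.15 TPM. From squalene on, Fdft1, which makes squalene, was at 32.5, 8.96 and 18.1 TPM (19.8 ± 11.8 TPM). Its level in replicate 1 was 3.62 times that in replicate 2. Msmo1, a methyl sterol oxidase, was next at 21.9, 9.32 and 22.0 TPM (17.7 ± 7.30 TPM). Lss, which closes the sterol rings, was at 8.99 ± 3.84 TPM. Sqle, the oxygenase that commits squalene to the sterol path, was at 7.48 ± 3.01 TPM, and the demethylase gene Cyp51 at 6.29 ± 2.57 TPM. Of the late enzymes, the desaturase Sc5d, the dehydrogenase Nsdhl and the last-step reductase Dhcr7 were at 4.95 ± 3.11, 3.60 ± 1.59 and 1.63 ± 0.342 TPM. Hsd17b7, a sterol ketoreductase gene, was at 0.93, 0.50 and 0.96 TPM with 40, 57 and 51 counts, so it was measured but low. The median of the 9 genes was 6.29 ± 2.57 TPM.

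Set against each other on the log2(TPM + 1) scale, the median of the 4 export genes exceeded that of the 15 synthesis genes by 2.11, 3.59 and 2.94 in replicates 1, 2 and 3, or 2.88 ± 0.74 (SD, n = 3). The difference had the same sign in every library and was larger than its SD. It was smallest in replicate 1 and largest in replicate 2.

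The SREBP control genes covered a wide range. Insig1, itself an SREBP target whose product holds SCAP in the endoplasmic reticulum, lies at chr5:28071363-28078662 on the plus strand of mm10. It was at 77.7, 19.9 and 40.6 TPM, or 46.1 ± 29.3 TPM (SD, n = 3), from 1544, 820 and 900 counts. The libraries differed 3.91-fold, more than the deposited intervals of the estimate within each library (67.3 to 76.7, 17.5 to 20.9 and 34.4 to 41.0 TPM). These intervals belong to another estimate than the TPM, which in replicate 1 lies above them. Its paralog Insig2 was at 7.64, 3.32 and 7.77 TPM (6.24 ± 2.53 TPM). On the log2(TPM + 1) scale Insig1 exceeded Insig2 by 3.19, 2.27 and 2.25 (2.57 ± 0.54, SD, n = 3). The excess held its sign in each library, and it was 1.36 in the second quantification. Scap was at 6.23 ± 1.73 TPM. Srebf1, which encodes SREBP-1 and lies at chr11:60199089-60222581 on the minus strand, was at 17.3, 22.5 and 23.9 TPM (21.2 ± 3.46 TPM). Srebf2, which encodes SREBP-2, the main activator of cholesterol synthesis, was at 15.3, 12.1 and 20.5 TPM (16.0 ± 4.22 TPM). Srebf2 minus Srebf1 was -0.17, -0.84 and -0.21 on the log2(TPM + 1) scale, or -0.40 ± 0.38. The ranges of these paralogs overlapped. These are gene totals over all isoforms. Coding isoforms took 28.0% ± 3.30 of the TPM of Srebf1 and 43.4% ± 14.0 of that of Srebf2 (SD, n = 3 each). Summed over coding isoforms the order turned, with Srebf2 above Srebf1 in each library by a small margin. For Srebf2, Srebf2-201 had 3.86, 5.13 and 8.23 TPM and Srebf2-203 had 0.77, 1.57 and 0.36 TPM. Srebf2-202 added 0.34 TPM in replicate 2. For Srebf1, Srebf1-201 had 3.70, 5.53 and 6.52 TPM. Srebf1-203 had 0.31, 0.48 and 0.58 TPM and Srebf1-207 had 0.22, 0.41 and 0.29 TPM.

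Srebf1 has alternative starts that give the SREBP-1a and SREBP-1c proteins. The highest isoform of the gene, the coding isoform Srebf1-201, starts at position 60220604 of chromosome 11 and took 21.4%, 24.6% and 27.3% of the gene's TPM. Of the other coding isoforms, Srebf1-207 starts at 60210465 and took 1.28%, 1.83% and 1.22%. Srebf1-203 starts at 60207188 and took 1.78%, 2.15% and 2.42%. Srebf1-204, which is not coding and starts upstream at 60222581, took 9.96%, 0% and 0%. Which start gives SREBP-1a or SREBP-1c was not assigned here. Coding isoforms together took 28.0% ± 3.30 (SD, n = 3). The remainder was assigned to isoforms annotated as processed transcripts. Srebf1-204 is one of these, and the others begin inside the gene.

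Fatty acid synthesis was represented by 3 genes. Acaca, which makes malonyl-CoA, was at 18.7, 21.9 and 29.0 TPM (23.2 ± 5.30 TPM). Fasn, which builds palmitate from it, was at 5.96, 9.16 and 8.69 TPM (7.94 ± 1.73 TPM). Scd2, a desaturase, was at 4.29, 2.97 and 7.36 TPM (4.87 ± 2.25 TPM). Acaca was above the other two in each library.

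The promoters of the members were read for the motifs of SREBP and its usual partner. RefSeq windows of GRCm38.p6, from 250 bases before to 50 after each start, matched 24 of the 31 members; Fdft1, Scd2, Fdps, Stard4, Lpl, Abcg1 and Sqle had no entry. On both strands, TCACNCCAC, a form of the sterol regulatory element, occurred in 1 of the 24, Hmgcs1, and in 1.44% of all genes with a window. CACGTG, the E-box, occurred in 6 of 24 (Hsd17b7, Sc5d, Dhcr7, Insig1, Scap and Abca1) and in 8.09% of genes. CCAAT, the box bound by NF-Y, occurred in 19 of 24, or 79.2%, against 41.1% of all genes and 42.1% of protein-coding genes. All 12 synthesis genes with a window held CCAAT, and so did 1 of 3 export genes. A match describes letters and is not a measured binding site. The shortened form TCACNCCA, searched after the data were seen, occurred in Hmgcs1, Msmo1, Srebf2 and Apoe, and in 4.97% of genes.

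To show the contrast, 200 bases before the annotated first exon follow for 4 SREBP-regulated genes and for Abca1, 5′ to 3′ on the gene's strand, with motif matches in capitals. Hmgcs1 was taken for its TCACNCCAC match and the others after their matches were seen. They are chr5:28071163-28071362 (Insig1, plus strand), chr13:119690151-119690350 (Hmgcs1, plus), chr8:122443423-122443622 (Mvd, minus), chr10:76531388-76531587 (Lss, plus) and chr4:53159896-53160095 (Abca1, minus), in GRCm38.p6.
Insig1: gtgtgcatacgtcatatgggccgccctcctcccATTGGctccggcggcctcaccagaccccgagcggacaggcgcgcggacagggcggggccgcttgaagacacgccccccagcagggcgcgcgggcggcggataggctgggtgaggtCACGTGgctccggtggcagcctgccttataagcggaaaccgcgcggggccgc
Hmgcs1: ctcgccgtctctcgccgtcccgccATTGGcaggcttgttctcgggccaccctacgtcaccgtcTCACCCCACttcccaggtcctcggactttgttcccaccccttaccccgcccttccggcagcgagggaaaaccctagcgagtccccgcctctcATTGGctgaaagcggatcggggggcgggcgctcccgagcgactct
Mvd: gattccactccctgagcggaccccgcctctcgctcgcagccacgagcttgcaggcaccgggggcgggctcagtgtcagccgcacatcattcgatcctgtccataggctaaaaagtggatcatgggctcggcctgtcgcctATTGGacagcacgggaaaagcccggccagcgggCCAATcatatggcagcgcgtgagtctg
Lss: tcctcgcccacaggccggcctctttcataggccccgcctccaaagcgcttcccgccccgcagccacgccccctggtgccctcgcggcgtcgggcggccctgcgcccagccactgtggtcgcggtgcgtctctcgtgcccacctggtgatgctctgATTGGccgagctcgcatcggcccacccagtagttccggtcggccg
Abca1: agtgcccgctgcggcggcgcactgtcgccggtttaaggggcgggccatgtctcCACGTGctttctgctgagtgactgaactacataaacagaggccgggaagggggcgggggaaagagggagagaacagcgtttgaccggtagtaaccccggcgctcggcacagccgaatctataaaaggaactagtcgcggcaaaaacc
Hmgcs1 holds 2 CCAAT boxes, both read on the other strand, and between them the sterol regulatory element form, 137 bases before the RefSeq start. Insig1 has 1 CCAAT box and the E-box, Mvd has a CCAAT box in each orientation and Lss has 1. Abca1 has the E-box and no CCAAT in this window.

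An intron of Srebf2 holds the microRNA gene Mir33, at chr15:82198122-82198190 on the same strand as Srebf2, clear of its annotated exons. MiR-33 is known to repress Abca1, so an activator gene of cholesterol synthesis and a repressor of export share a transcription unit. The mature sequence (RefSeq, GRCm38.p6), with the seed (bases 2 to 8) in capitals, is shown with the stretch of the Abca1 3′ UTR (GENCODE M21) that matches the seed.
mmu-miR-33-5p: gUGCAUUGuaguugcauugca
Abca1 3′ UTR, bases 131 to 160: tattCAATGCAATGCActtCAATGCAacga
In the Abca1 line the capitals mark CAATGCA, the reverse complement of the seed, at bases 135, 140 and 150 of the 3′ UTR of Abca1-201. The matches at 135 and 140 overlap, so the first 12 capitals hold both. CAATGCA was found in the 3′ UTR of 4 of the 31 members: 3 times in Abca1, 2 times in Abcg1 and 1 time each in Nsdhl and Acaca. Of 21674 genes with a 3′ UTR, 6.81% held it at least once, and 15, or 0.0692%, held it 3 times or more. The members' UTRs were longer, with a median of 1600 bases against 890, and of the fifth of genes with the longest UTRs 18.8% held a match. The Mir33 precursor itself had 0 counts in the gene table and 2, 7 and 1 estimated counts in the second quantification. At 69 bases the precursor is shorter than the fragment sizes in the labels, so its level was not measurable here.

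The libraries did not differ in the same way for the genes from squalene to cholesterol and for export. For each gene with a mean of at least 1 TPM, its log2(TPM + 1) in a library was set against its own mean and the library was centred on the median such gene; this value is called the deviation. For the 8 expressed members from squalene to cholesterol the median deviation was 0.29 in replicate 1, -0.34 in replicate 2 and 0.04 in replicate 3. Replicate 2 was the lowest library for 7 of the 8, where it was lowest for 38.9% of all such protein-coding genes, and Dhcr7 was the exception. Genes of the same path outside the members did not share this pattern. The wider list of isoprenoid and late sterol genes had medians of 0.04, -0.02 and 0.07, with replicate 2 lowest for 5 of 10. Of its late sterol genes, Tm7sf2 was at -0.36, 0.05 and 0.32, Ebp at -0.35, 0.02 and 0.33 and Lbr at -0.03, -0.07 and 0.10. For the 4 export genes the median was -0.33, 0.38 and -0.07. Replicate 2 was highest for 3 of the 4 (all but Mylip), against 39.2% of all such genes. Over all 29 expressed members replicate 2 was lowest for 12 and highest for 13, shares of 41.4% and 44.8% that lie near the background. The 6 mevalonate genes were split, with medians of -0.16, 0.14 and 0.01. Hmgcs1 (0.34, -0.17 and -0.17) and Idi1 (0.46, -0.17 and -0.29) were above 0 in replicate 1 and below 0 in replicate 2. Mvd, Mvk and Pmvk ran the other way in these 2 libraries, and Fdps stayed near 0 (-0.03, 0.08 and -0.05).

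**Figure D2:**
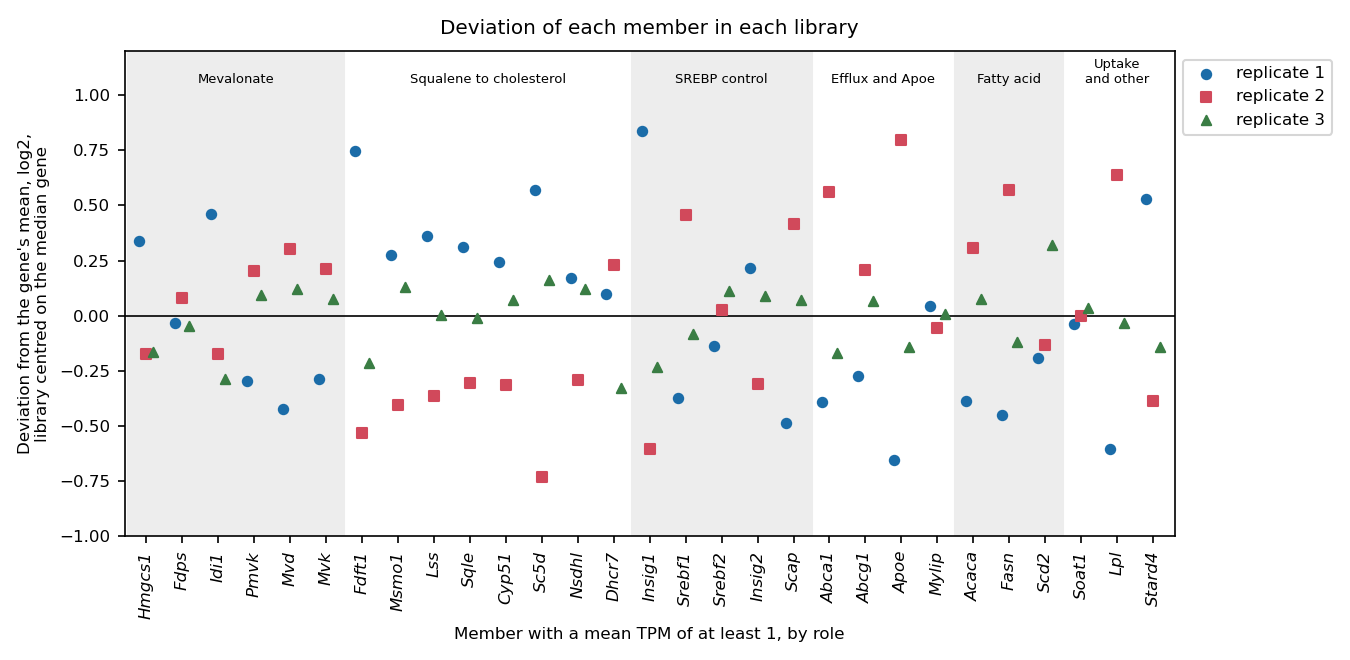
Deviation of each of the 29 expressed members (horizontal axis, by role) in each library, as log2 relative to the gene's mean and the library's median gene (vertical axis). Replicate 2 lies below 0 for Fdft1 to Nsdhl, Insig1, Insig2 and Stard4, and above 0 for Abca1, Abcg1, Apoe, Fasn, Acaca and Lpl, with replicate 1 on the other side of 0 for each.

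Single genes set the ends of this range. Insig1 deviated by 0.84, -0.61 and -0.23, Fdft1 by 0.75, -0.53 and -0.22, and Sc5d by 0.57, -0.73 and 0.16. Stard4 had 0.53, -0.39 and -0.14. These 4 genes were high in replicate 1 and low in replicate 2. Apoe deviated by -0.65, 0.80 and -0.14, Lpl by -0.61, 0.64 and -0.03, Fasn by -0.45, 0.57 and -0.12 and Abca1 by -0.39, 0.56 and -0.17. They stood in the opposite order in replicates 1 and 2. Srebf1, an LXR target, ran with Abca1 (-0.38, 0.46 and -0.08), while Srebf2 stayed within 0.14 of 0. Soat1 and Mylip also stayed within 0.06 of 0, although Soat1 was second in level. The median SD of a member over the centred libraries was 0.35, against 0.24 for all expressed protein-coding genes.

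Base composition moved with these deviations. Over all expressed protein-coding genes, the median deviation in replicate 2 ran from -0.21 in the lowest of 5 equal bins of GC content (of the longest transcript) to 0.25 in the highest. In replicate 1 it ran from 0.21 to -0.27. The genes from squalene to cholesterol had GC contents of 42.9% to 52.8%, and Apoe 59.5%. When each gene was set against genes of the same bin of length and of GC content, a choice made after the data were seen, the squalene to cholesterol genes kept medians of 0.27, -0.30 and 0.04. The export genes kept -0.28, 0.32 and -0.06. Single genes changed more: Srebf1 was then at -0.10, 0.21 and -0.11, Fasn at -0.14, 0.25 and -0.10, and Srebf2 at 0.14, -0.22 and 0.11. The likeness of Srebf1 to Abca1, which stayed at -0.38, 0.53 and -0.15, was thus weaker on this footing. In the second quantification the squalene to cholesterol genes had smaller medians, 0.14 in replicate 1 and -0.21 in replicate 2. Mvd, Mvk and Pmvk had GC contents of 56.3% to 59.0%. In the first quantification, set against genes of the same bin of length and GC content, their deviations were at most 0.15 in size. Starting RNA was highest in replicate 1 and lowest in replicate 2, and its part in the result was not tested.

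**Figure D3:**
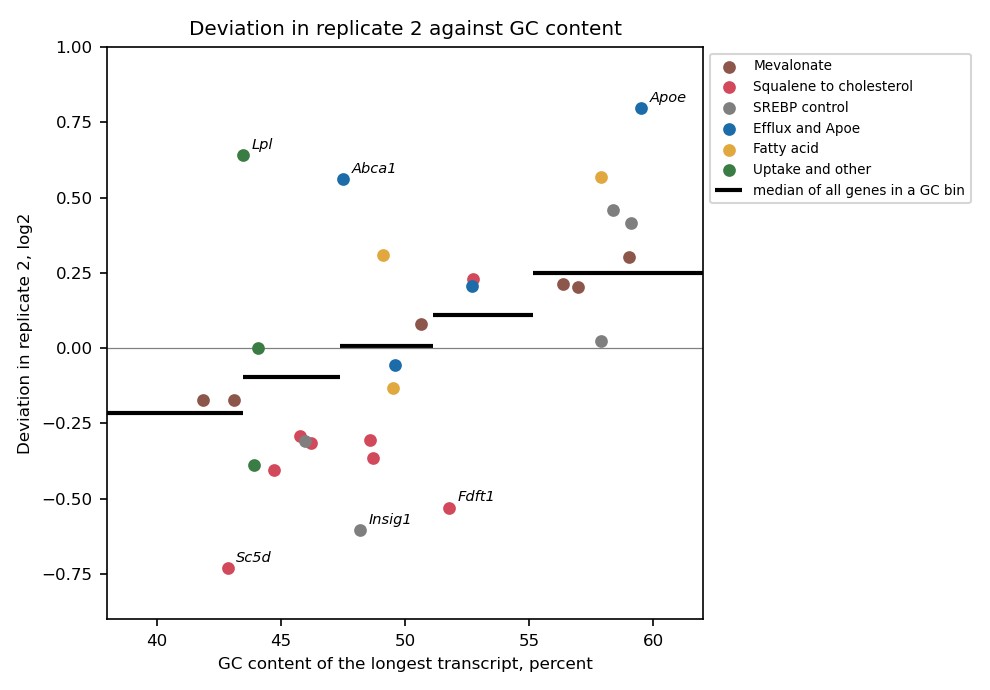
Deviation in replicate 2 (log2, vertical axis) against GC content of the longest transcript (percent, horizontal axis) for the 29 expressed members, coloured by role, with black lines at the median of all expressed protein-coding genes in each of 5 GC bins. Sc5d, Insig1 and Fdft1 lie below the lines and Lpl, Abca1 and Apoe above them.

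Reads from the other strand bear on some of these values, because the use of strand in counting is not given in the sources used here. Exons of Fdft1 overlap 774 bases of exons of Ctsb, a cathepsin gene on the opposite strand at 590, 445 and 488 TPM. Ctsb is also highest in replicate 1 and lowest in replicate 2, so the level of Fdft1 is uncertain. Without Fdft1, a choice also made after the data were seen, the other genes of its group had median deviations of 0.28, -0.32 and 0.07. Hmgcs1 shares 557 exon bases with the antisense gene Gm48342, at 13.6, 4.50 and 7.31 TPM, and Cyp51 shares 166 with Akap9, at 58.5 ± 13.4 TPM. In all, 12 members overlap a gene on the other strand; Insig1, Abca1, Apoe, Lpl, Sc5d and Msmo1 do not.

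Isoforms annotated as retained introns took a median share of the members' TPM that was no higher than in other expressed genes. In chromatin RNA, reads from the introns of unfinished transcripts and reads from finished isoforms that keep an intron cannot be told apart in these tables. Sqle had 78.5%, 71.5% and 79.9% of its TPM in such isoforms, or 76.6% ± 4.50 (SD, n = 3). Msmo1 had 58.1% ± 3.75, Srebf2 56.6% ± 14.0, Lss 55.5% ± 11.8, Insig1 55.3% ± 3.49 and Insig2 54.2% ± 9.92. These 6 of 29 members, or 20.7%, were at 50% or more, where 31.2% of all expressed protein-coding genes with more than 1 isoform were. The members' median was 31.2%, 26.7% and 27.2% in replicates 1, 2 and 3, or 28.3% ± 2.47, and that of all such genes was 33.5%, 28.5% and 31.4%, or 31.1% ± 2.46 (SD, n = 3 each). The members were lower in each library, and the 2 ranges overlapped. Abca1, Mylip, Sc5d, Scd2, Mvd, Pmvk and Srebf1 have no annotated isoform of this class and are at 0 by construction. Among the genes that have one, the median was 36.5% ± 2.09 for the members and 47.6% ± 3.19 for all such genes. It was 50.7% ± 6.08 for 4 SREBP control genes and 22.7% ± 2.71 for 2 export genes, Abcg1 and Apoe. Counted by expected counts and not by TPM, the members' median was 10.5%. The share over all such genes was not computed on that measure, so no comparison is made there.

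**Figure D4:**
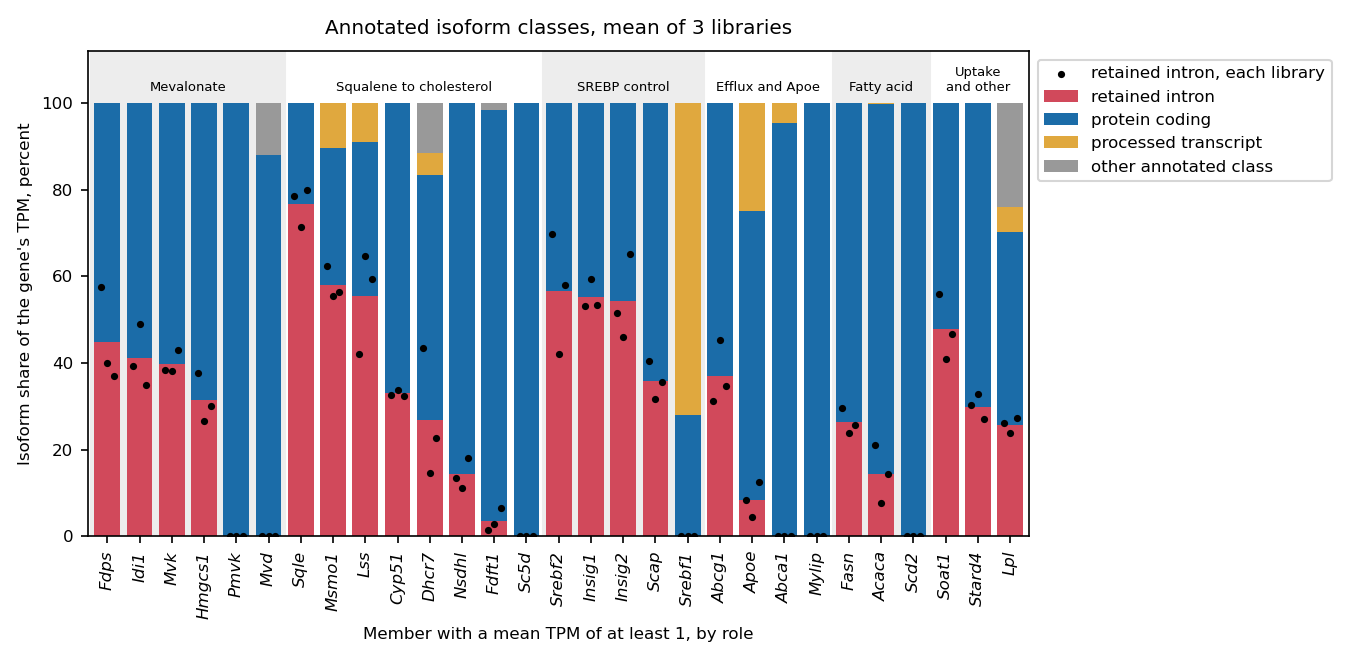
Mean share of each gene's TPM (percent, vertical axis) in 4 annotated isoform classes for the 29 expressed members by role (horizontal axis), with black points for the retained-intron share in each library. Sqle has the highest retained-intron share, and Srebf1 is mostly in processed transcripts.

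The leading isoform, the one with the highest mean share, was coding in 23 of the 29 and a retained intron in 6 (Mvk, Sqle, Lss, Msmo1, Insig1 and Abcg1). It led in all 3 libraries for 17. Insig1 shows the pattern most simply, with only 2 isoforms. The coding Insig1-201 was at 36.4, 8.07 and 18.9 TPM and the retained-intron Insig1-202 at 41.3, 11.8 and 21.7 TPM. Both were highest in replicate 1 and lowest in replicate 2, so the difference between libraries did not lie in 1 isoform. Abca1 was almost all 1 coding isoform, Abca1-201, at 95.4% ± 1.77. Srebf2 was split among the coding Srebf2-201 (35.9% ± 9.32) and the retained-intron isoforms Srebf2-207 (28.8% ± 5.74) and Srebf2-205 (26.8% ± 8.22).

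The deposited second quantification, made from the reads against the same transcripts, gave a higher mean TPM over the 3 libraries for all 29 expressed members. Apoe was the exception within libraries, at 54.4 against 58.6 TPM in replicate 2 and 46.4 against 46.9 TPM in replicate 3. The ratio of second to first had a median of 1.72 and ran from 1.03 for Apoe to 5.05 for Stard4 and 5.11 for Dhcr7. For all expressed protein-coding genes the median ratio was 1.60. Insig1 had 96.4, 22.6 and 46.0 TPM there and Abca1 199, 201 and 213 TPM. The order of libraries for Insig1 was the same, while the levels of Abca1 in replicates 1 and 2 became nearly equal before centring. Insig2 was 2.99 times higher in the second quantification. The same isoform led in both quantifications for 15 of the 29.

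The wider pathway was read from 6 lists of 54 other genes. Of these, 43, or 79.6%, were at 1 TPM or more in all 3 libraries. Of 11 isoprenoid and late sterol genes 9 were detected. The highest were Pggt1b, a subunit of a prenyl transferase, at 27.8 ± 10.6 TPM and Nus1, a subunit of the dolichol-making enzyme, at 11.8 ± 3.16 TPM. Acat2, the acetoacetyl-CoA thiolase gene, was among the lowest at 1.41 ± 0.605 TPM (SD, n = 3 each). All 7 genes of SREBP processing and INSIG turnover were detected. Aup1, a gene of quality control in the endoplasmic reticulum, and Mbtps1, which encodes the site-1 protease that cuts SREBPs, led at 66.3 ± 18.4 and 36.5 ± 8.99 TPM. Erlin1, a membrane protein gene of the same compartment, was among the lowest at 8.50 ± 2.81 TPM.

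All 5 genes of the LXR list were detected as well. Nr1h2, which encodes LXR beta, was at 29.1, 42.8 and 53.7 TPM (41.9 ± 12.3 TPM) and Lpcat3, a phospholipid remodelling enzyme and LXR target, at 13.9 ± 8.27 TPM. The LXR partners Rxrb and Rxra were lowest at 12.5 ± 3.80 and 7.55 ± 0.817 TPM. The median deviation of the list was -0.41, 0.34 and 0.14, lowest in replicate 1 as for the export genes. Replicate 1 was also lowest for 4026 of the 10245 expressed protein-coding genes. The highest GC bin had a median of -0.27 in that library. The list was not set against genes of the same length and GC content, so a likeness to the export genes beyond base composition was not tested. The order of replicates 1 and 2 was not particular to it, as the sterol transport list had medians of -0.27, 0.26 and 0.02. The ester and droplet list had -0.04, 0.07 and 0.01 and the SREBP processing list 0.06, -0.06 and 0.01. The wider fatty acid enzymes had 0.12, -0.13 and -0.11, against -0.39, 0.31 and 0.08 for the 3 fatty acid members. Of 9 sterol transport genes 7 were detected. The lipoprotein receptor gene Lrp1 was at 128, 294 and 237 TPM (220 ± 84.4 TPM) and the oxysterol-making Cyp27a1 at 109 ± 22.5 TPM. Gramd1c, a sterol transfer gene, and Vldlr, a lipoprotein receptor gene, were lowest, at 0.327 ± 0.146 and 0.0633 ± 0.0416 TPM.

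Of 10 ester and droplet genes 8 were detected. Plin2, the coat protein of lipid droplets, was at 130, 257 and 197 TPM (195 ± 63.2 TPM), and the lysosomal esterase gene Lipa at 87.7 ± 20.0 TPM. Soat2, the paralog of Soat1, was at 0.107 ± 0.0503 TPM and Dgat2, of triglyceride synthesis, at 0.0633 ± 0.0586 TPM. Soat1 was above Soat2 in each library, at 94.3 to 149 TPM against 0.06 to 0.16 TPM. Of 12 fatty acid enzymes 7 were detected. Acly, which makes cytosolic acetyl-CoA, led at 28.5 ± 2.95 TPM, followed by Acsl3, a fatty acyl-CoA synthetase gene, at 10.3 ± 5.76 TPM. Scd1, a desaturase gene, and Me1, the malic enzyme gene, were lowest at 0.270 ± 0.269 and 0.117 ± 0.0666 TPM. Of the desaturase paralogs, Scd2 was thus above Scd1 in each library, at 2.97 to 7.36 TPM against 0.03 to 0.56 TPM.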

How the data were processed

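Chromatin RNA-seq of 3 libraries in 1 group was analysed. The deposited gene and transcript tables give expected counts, TPM, interval bounds of the TPM (a signal range per library) and each isoform's percent of its gene, per the file headers. A further deposited table gives estimated counts and TPM from a second quantification of the same reads. The authors set TPM to a sum of 1000000 over all features. Assembly was mm10 and annotation GENCODE M21, per the text deposited with the files. Programs, versions and use of strand were not given in the sources used here.

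Levels are the deposited TPM. Differences used log2(TPM + 1), which understates changes of low genes. Genes were joined by gene ID to symbols of the second table, and isoform classes by transcript ID. Second-table TPM was summed per gene. Retained-intron shares are of summed isoform TPM. Expected counts were rounded for TMM factors (edgeR 4.0.16) and size factors (DESeq2 1.42.0) in R 4.3.3. The rest ran in Python 3.11.15 (pandas 2.3.3, numpy 2.4.6, scipy 1.17.1). Only the step that gives the deviations was checked on simulated data. Counts of 3 were taken as the floor, and a floor covers counting error only, because reads with no molecular identifier can be copies of one another. Motifs were searched in RefSeq promoter windows of GRCm38.p6, and miR-33 sites in the 3′ UTR of each gene's longest coding isoform.

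The members and all lists were chosen with earlier results of these data known. All 31 members are named, and of each wider list the 2 highest and 2 lowest by mean TPM, except that some are not reported here. Other genes are named where a result turns on them, and 4 of the 5 promoters shown were chosen after their motifs were seen. Alternatives were leaving out each library, other scalings, pseudocounts and filters, and the second quantification.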

Additional observations from a re-analysis of the deposited data

How the results depend on the processing

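The 23 results were recomputed under 128 alternatives; 18 moved by more than the tolerance, which was 1 SD between libraries, for deviations the SD between genes, for the count a fixed ratio and for the motif share its binomial interval. Export minus synthesis and both paralog differences, taken from gene totals, kept their sign in each. The sum over coding isoforms, in which the order of Srebf1 and Srebf2 turned, was not among these alternatives. The number of detected members was 15, not 29, when the limit was 5 TPM, and 29 in each set of 2 libraries. In the second quantification, the members' median was 15.0 TPM, and the medians by role were 8.26 (mevalonate), 11.1 (squalene to cholesterol), 24.5 (SREBP control), 65.7 (export), 10.8 (fatty acid) and 78.0 TPM (uptake, ester, oxysterol and transfer). With protein-coding genes alone set to 1000000 they were 35.2 for all members, then 19.7, 27.8, 72.7, 221.5, 38.1 and 207.6 TPM. The excess of Insig1 over Insig2 was 1.36 in the second quantification. The retained-intron share was 10.5% when taken from expected counts. With the E-box in place of the sterol regulatory element, 25% of member promoters matched; the shortened element gave 16.7%. Leaving out 1 library at a time gave 2.53 to 3.27 for export minus synthesis, 2.26 to 2.73 for Insig1 minus Insig2 and -0.52 to -0.19 for Srebf2 minus Srebf1. The deviation of the squalene to cholesterol genes ran from 0.14 (second quantification) to 0.31 in replicate 1 and from -0.39 to -0.21 in replicate 2. That of the export genes ran from -0.46 to -0.24 and from 0.32 to 0.56. No paired analysis was possible because there is only 1 group. Depth limits Ch25h most, and then Mvd, Dhcr7, Mvk, Hsd17b7 and Pmvk, which had 36 to 41 counts in replicate 1.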
